A study of Mus musculus with 12 samples.

Results

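The brush border is the carpet of microvilli on the luminal face of proximal tubule cells, the cells that recover most of the filtered solute in the kidney. Its membrane is dense with peptidases whose active sites face the tubule fluid, where they cut filtered peptides and glutathione into amino acids that transporters then carry into the cell. Villin bundles and severs actin in the core of each microvillus. The 9 genes described here encode 8 such peptidases (Folh1, Mme, Anpep, Dpep1, Mep1a, Mep1b, Ggt1 and Dpp4) and villin itself (Vil1). They were taken by gene symbol from tables of 32692 genes, with earlier results of these data known. All 9 had enough counts to be tested.

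Expression was measured by RNA-seq of whole kidneys from wild-type, untreated mice at day 8 (n = 5 libraries) and at day 0 (n = 6). The series was made to find genes that are expressed differently across the neonatal period. The labels name no strain, sex, litter or batch, nor do they state that libraries are separate animals. Adjusted p-values therefore judge the difference of the ages against the spread between these libraries, which may be technical. Library totals ran between 18222170 and 24428652 estimated counts. The lowest count of any of the 9 genes in a library was 11, for Folh1, and the lowest for the other 8 was 455.

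At day 8, 7 of the 9 genes were higher than at day 0, 1 was lower and 1 did not pass the test. A gene was called when edgeR's quasi-likelihood test gave a Benjamini-Hochberg adjusted p under 0.05 over 18763 tested genes. At that threshold 27.5% of all tested genes were called higher at day 8, 30.1% were called lower and 57.6% were called in either direction. The changes spanned a wide range. Folh1 was 26.2-fold higher, Dpep1 3.31-fold, Mep1a 2.10-fold, Vil1 1.74-fold, Ggt1 1.52-fold, Dpp4 1.32-fold and Mep1b 1.23-fold, while Mme differed 1.01-fold without a call and Anpep was 1.17-fold lower. The median log2 fold change of the 9 genes was 0.61, against -0.01 for all tested genes. Day 8 lay wholly above day 0 for each of the 7 higher genes, as it did for 19.1% of all tested genes; ranges that did not overlap, in either direction, were seen for 40.5% of them.

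**Figure D1:**
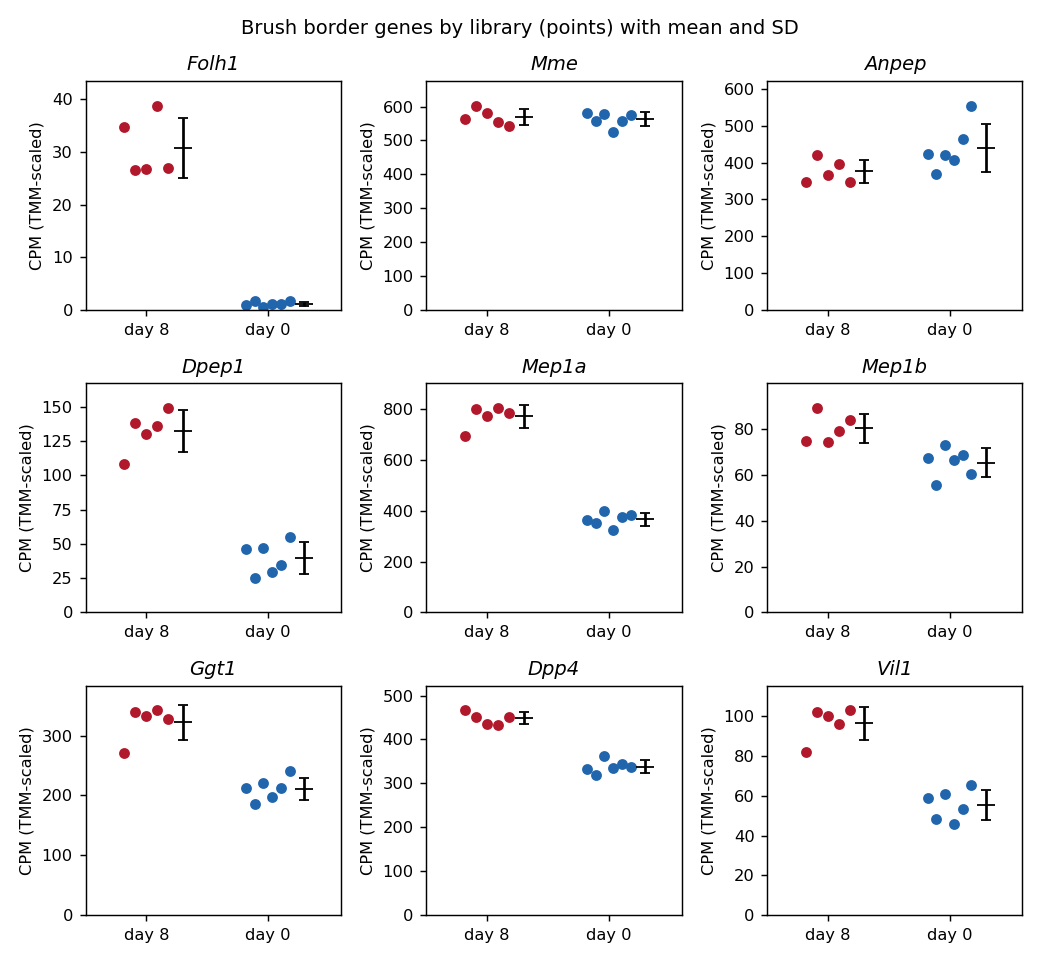
Level of each gene in CPM (counts relative to the library total, scaled by TMM factors) in every library, with day 8 (5 libraries, red) left of day 0 (6 libraries, blue) and the mean and SD in black. Folh1 stood between 26.6 and 38.8 CPM at day 8 and between 0.593 and 1.69 CPM at day 0, whereas the ranges of Mme and Anpep overlapped.

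Folh1 encodes glutamate carboxypeptidase II, a membrane enzyme that removes terminal glutamate from N-acetylaspartylglutamate and from folate polyglutamates. Its locus lies on chr7:86718977-86775943, minus strand, in GENCODE vM21 on GRCm38. The 5 day 8 libraries held 34.8, 26.6, 26.8, 38.8 and 27.0 CPM of Folh1, against 0.868, 1.64, 0.593, 1.10, 1.09 and 1.69 CPM in the 6 day 0 libraries. Every day 8 library thus held more than every day 0 library, and day 8 libraries 1 and 4 stood above the other 3 of their age. By edgeR the log2 fold change came to 4.71 (SE 0.20, adjusted p = 6e-10), the fourth highest of the 18763 tested among signed values; some genes that were lower at day 8 changed by more in size. The estimated counts behind these levels were 811, 541, 587, 931 and 614 at day 8, and 19, 30, 11, 21, 21 and 39 at day 0. The transcript was therefore detected in each newborn library, at few counts. Even at day 8 Folh1 remained the least abundant of the 9 genes per length, with 14.1 TPM (a unit that corrects for transcript length) against 0.477 TPM at day 0.

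Dpep1 encodes the membrane dipeptidase, which splits cysteinylglycine, the product of glutathione breakdown, and converts leukotriene D4. It lies on chr8:123186242-123201812, plus strand. Day 8 libraries held 108, 138, 129.9, 136 and 149 CPM, against 46.5, 24.9, 47.3, 29.8, 34.7 and 55.2 CPM at day 0. The ages did not overlap, and the day 0 libraries spread more in proportion to their mean (132 ± 15.3 CPM at day 8 and 39.7 ± 11.7 CPM at day 0, SD). On the log2 scale the difference was 1.73 (SE 0.20, edgeR adjusted p = 3.66e-05).

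Ggt1 encodes gamma-glutamyltransferase, the enzyme that takes the glutamyl group off glutathione and so acts one step before Dpep1. It lies on chr10:75561604-75586200, plus strand. Its level was 270.1, 339, 332, 342 and 327 CPM at day 8, against 212, 186, 220.1, 198, 212 and 241 CPM at day 0. Day 8 library 1 stood below the other 4 of its age, yet above each day 0 library. Its log2 fold change of 0.61 had an SE of 0.07 (edgeR adjusted p = 3.09e-06). The ratio of Dpep1 to Ggt1 TPM within a library was 0.369 to 0.445 at day 8 and 0.118 to 0.204 at day 0, a 2.47-fold higher ratio at day 8 (exact two-sided permutation test over the libraries, p = 0.00433, adjusted p = 0.00541 over 10 ratios). The value 0.00433 is the smallest that 462 arrangements of these libraries allow. Such a ratio shows that the pair changed unequally, and scaling of the library cancels out of it.

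Mep1a and Mep1b encode the alpha and beta subunits of meprin, a metalloprotease of the astacin family that cuts larger peptides and matrix proteins. The beta subunit carries the membrane anchor. Mep1a lies on chr17:43474324-43502812, minus strand, and Mep1b on chr18:21061923-21100199, plus strand. Mep1a was at 693, 800.1, 774, 804 and 786 CPM at day 8, against 365, 350.2, 398, 326, 377 and 385 CPM at day 0. The ages lay far apart relative to the spread within each (771 ± 45.3 CPM at day 8 and 367 ± 25.6 CPM at day 0, SD), and edgeR gave a log2 fold change of 1.07 (SE 0.06, adjusted p = 2.55e-10). Mep1b was at 75.0, 89.2, 74.4, 79.3 and 83.9 CPM at day 8, against 67.6, 55.5, 73.0, 66.4, 68.6 and 60.3 CPM at day 0. Here the ages were separated only narrowly, since the lowest day 8 library (74.4 CPM) lay just above the highest day 0 library (73.0 CPM). For Mep1b edgeR gave a log2 fold change of 0.30 (SE 0.07, adjusted p = 0.00131).

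The meprin subunits thus changed unequally. The ratio of Mep1b to Mep1a TPM was 0.129 to 0.149 at day 8 and 0.206 to 0.271 at day 0, and the difference of -0.77 on the log2 scale gave an exact permutation p of 0.00433 (adjusted p = 0.00541). At both ages the alpha transcript was the more abundant of the pair per length, at 346 and 47.7 TPM for Mep1a and Mep1b at day 8 and at 150 and 35.5 TPM at day 0.

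Dpp4 encodes dipeptidyl peptidase 4, which clips dipeptides from the amino end of peptides that carry proline or alanine in second place. It lies on chr2:62330073-62412231, minus strand. Its level was 466, 452, 436, 432 and 451 CPM at day 8, against 332, 319.9, 362, 335, 343 and 337 CPM at day 0. The change was small, but the spread within each age was smaller still (448 ± 13.7 CPM at day 8 and 338 ± 14.1 CPM at day 0, SD). Its log2 fold change of 0.40 had an SE of 0.04 (edgeR adjusted p = 3.08e-07). An antisense gene, Gm13561, overlaps 1 of its exons in the annotation and is not listed in the tables.

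Mme encodes neprilysin, the endopeptidase that degrades natriuretic peptides, kinins and enkephalins. It lies on chr3:63241537-63386030, plus strand. Day 8 libraries gave 562, 603, 581, 555 and 542 CPM, against 582, 558, 577, 525, 558 and 575 CPM at day 0. The ages overlapped almost wholly. The edgeR fit gave a log2 difference of 0.02 (SE 0.04, adjusted p = 0.768). On the TPM scale, limma gave 0.19 (log2 of TPM + 1, adjusted p = 0.0459), where the median of all tested genes was itself 0.13, and without TMM scaling the fold change was -0.05. The direction of Mme thus depended on the scale.

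Anpep encodes aminopeptidase N, which removes neutral amino acids one at a time from the amino end of peptides. It lies on chr7:79821803-79861059, minus strand, on the same chromosome as Folh1. Its level was 347, 421, 367, 396 and 348 CPM at day 8, against 424, 369, 421, 407, 464 and 555 CPM at day 0. The ages overlapped, with day 0 library 6 the highest of all and day 0 libraries 2 and 4 within the day 8 range. Its log2 fold change of -0.23 (SE 0.09) was at the edge of the threshold (edgeR adjusted p = 0.0498). Without day 0 library 6 it was -0.14 (adjusted p = 0.0816), and the call was also lost on leaving out day 0 library 1, 3 or 5 or day 8 library 1, 3, 4 or 5. On the TPM scale it was -0.09 (limma, adjusted p = 0.576), and over all alternatives the adjusted p ran between 0.0153 and 0.652.

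Vil1, which encodes villin, lies on chr1:74409376-74435559, plus strand. Its level was 82.2, 102, 100.1, 96.0 and 103 CPM at day 8, against 59.1, 48.3, 60.9, 46.0, 53.6 and 65.4 CPM at day 0. The ages did not overlap, and edgeR put the log2 difference at 0.80 (SE 0.09, adjusted p = 5.53e-06). Of its exons, 1 overlaps Usp37 on the opposite strand, a gene that averaged 73.1 CPM at day 8 and 92.7 CPM at day 0. The sources used here do not give whether counting used the strand, so the reads of that stretch cannot be assigned.

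**Figure D2:**
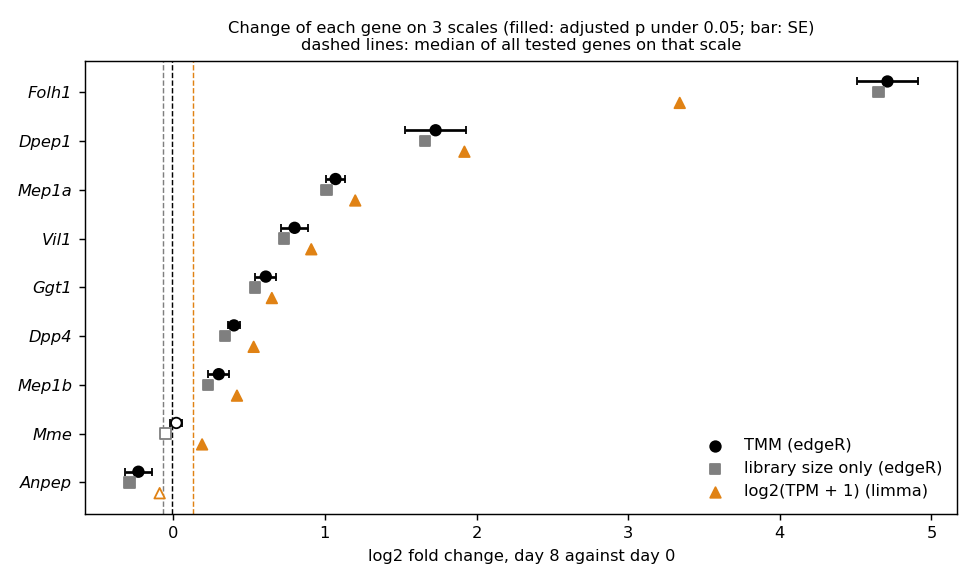
Log2 fold change of each gene at day 8 against day 0 on 3 scales, with filled symbols for an adjusted p under 0.05, open symbols for the rest, SE bars for edgeR with TMM, and dashed lines at the median of all tested genes on each scale. The 7 genes from Folh1 to Mep1b were called higher on each scale; Mme lay at 0.02 with TMM, -0.05 with library size only and 0.19 with TPM, and Anpep was called lower with TMM and library size only.

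The genes can also be set against villin of the same library, which gives each peptidase transcript relative to a structural transcript of the microvillus. Relative to Vil1, 3 of the 8 peptidases were higher at day 8 and 5 were lower. Vil1 itself ranked 1426 of the 18763 tested genes by signed edgeR log2 fold change, a percentile of 92.4. Most tested genes thus rose by less than Vil1 or fell, so a lower ratio to it is not particular to these peptidases. Ratios to Vil1 were not computed for all genes. The Folh1 to Vil1 ratio of TPM was 0.272 to 0.445 at day 8 and 0.0139 to 0.0408 at day 0, a difference of 3.72 on the log2 scale. The Dpep1 to Vil1 ratio was 2.47 to 2.86 at day 8 and 0.941 to 1.58 at day 0, a difference of 1.02. The Mep1a ratio differed by 0.27, with 7.65 to 8.66 at day 8 and 6.02 to 7.55 at day 0. Each of these gave an exact permutation p of 0.00433 (adjusted p = 0.00541).

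The other peptidases made up less per villin transcript at day 8. All these ratios share Vil1, which itself rose (edgeR log2 fold change 0.80). Ggt1 (0.61), Dpp4 (0.40) and Mep1b (0.30) were called higher too, but rose by less than Vil1. For Anpep the ratio was 2.87 to 3.75 at day 8 and 5.85 to 7.80 at day 0, a difference of -1.02, and for Mme it was 2.90 to 3.80 at day 8 and 4.68 to 6.17 at day 0, a difference of -0.75. The ages did not overlap for either gene, nor for Ggt1, whose ratio differed by -0.28 (exact permutation test, p = 0.00433 and adjusted p = 0.00541 for each). The Mep1b and Dpp4 ratios differed by -0.50 and -0.40, with ages that overlapped (exact permutation p = 0.00866 and adjusted p = 0.00866 for each). The Anpep ratio differed between the ages in each alternative tried. These left out each library, used 1 TPM as the pseudocount or took CPM in place of TPM. On log2(TPM + 1), however, limma gave -0.09 for Anpep (adjusted p = 0.576) and 0.91 for Vil1 (adjusted p = 6.02e-06). The ratio thus held mostly the rise of villin, and it does not firm up the marginal call for Anpep in CPM.

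**Figure D3:**
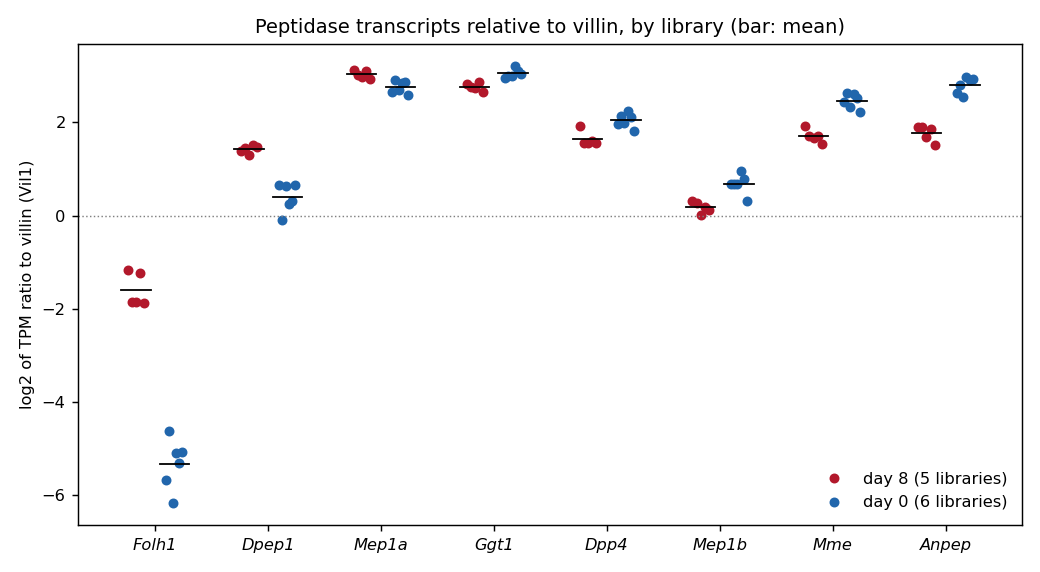
Log2 of the TPM ratio of each peptidase to Vil1 in every library, with day 8 (5 libraries) left of day 0 (6 libraries), a bar at each mean and a dotted line where both transcripts are equal. Folh1, Dpep1 and Mep1a lie higher at day 8 and the other 5 peptidases lower, by up to -1.02 for Anpep.

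The order of the transcripts per length changed between the ages. At day 8 Mep1a led with 346 TPM, ahead of Ggt1 with 289 TPM, in all 5 libraries although their ranges over libraries overlapped. Anpep (144 TPM), Mme (138 TPM), Dpp4 (132 TPM) and Dpep1 (114 TPM) followed, each overlapping its neighbour in this order. Mep1b (47.7 TPM) and Vil1 (42.4 TPM) overlapped as well, while Folh1 stood apart at 14.1 TPM.

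At day 0 Ggt1 led with 185 TPM, and Anpep (156 TPM) and Mep1a (150 TPM) came next, each overlapping its neighbour. Mme (121 TPM) overlapped Mep1a but not Dpp4 (91.0 TPM). Mep1b (35.5 TPM), Dpep1 (30.5 TPM) and Vil1 (22.2 TPM) formed a group of overlapping neighbours, and Folh1 was far lower at 0.477 TPM. Dpep1 thus stood beside Mep1b and Vil1 at day 0, and beside Dpp4 at day 8.

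Summed over the 8 peptidases, the level was 1225 ± 92.6 TPM at day 8 and 769 ± 103 TPM at day 0 (SD), and ranged over 1123 to 1317 TPM at day 8 and 621 to 926 TPM at day 0. Mep1a made up 28.2% of that sum at day 8 and 19.6% at day 0, and Dpep1 9.29% at day 8 and 3.91% at day 0. Anpep made up 11.8% at day 8 and 20.1% at day 0, and Mme 11.3% at day 8 and 15.9% at day 0. The share of Ggt1 was close at both ages, 23.5% at day 8 and 23.9% at day 0. Shares of a sum depend on each other, so they describe the mix and were not tested.

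Promoter sequences are printed for the gene of the 9 with the largest change (Folh1), for the most abundant transcript at day 8 (Mep1a) and for the pair not called higher (Mme and Anpep), because they differ in CpG dinucleotides. RefSeq windows on GRCm38.p6, from 250 bases before to 50 bases after an annotated start, were matched for 8 of the 9 genes and number 13 in all. Mep1b was not matched. Capitals mark each CG, and sequences read 5′ to 3′ on the strand of the gene.
Folh1, chr7:86775815-86776114, minus strand, 4 CpG: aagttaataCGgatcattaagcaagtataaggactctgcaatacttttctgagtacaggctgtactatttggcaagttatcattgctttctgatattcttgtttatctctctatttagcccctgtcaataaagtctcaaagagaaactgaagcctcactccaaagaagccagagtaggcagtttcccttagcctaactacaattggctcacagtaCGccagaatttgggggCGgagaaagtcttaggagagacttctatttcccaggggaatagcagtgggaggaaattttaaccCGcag
Mep1a, chr17:43502724-43503023, minus strand, 6 CpG: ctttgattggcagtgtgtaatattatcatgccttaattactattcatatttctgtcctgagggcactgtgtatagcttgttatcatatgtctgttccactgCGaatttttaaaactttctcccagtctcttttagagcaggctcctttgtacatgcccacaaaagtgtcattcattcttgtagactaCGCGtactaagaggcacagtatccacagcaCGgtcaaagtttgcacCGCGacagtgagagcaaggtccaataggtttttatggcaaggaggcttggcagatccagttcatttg
Mme, chr3:63295622-63295921, plus strand, 32 CpG: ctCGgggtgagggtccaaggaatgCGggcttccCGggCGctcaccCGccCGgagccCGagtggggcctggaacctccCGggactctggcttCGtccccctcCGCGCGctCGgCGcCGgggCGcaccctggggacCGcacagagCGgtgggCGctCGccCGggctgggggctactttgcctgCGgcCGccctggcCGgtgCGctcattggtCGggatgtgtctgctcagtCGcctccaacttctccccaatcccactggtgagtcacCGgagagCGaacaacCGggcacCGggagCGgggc
Anpep, chr7:79848161-79848460, minus strand, 28 CpG: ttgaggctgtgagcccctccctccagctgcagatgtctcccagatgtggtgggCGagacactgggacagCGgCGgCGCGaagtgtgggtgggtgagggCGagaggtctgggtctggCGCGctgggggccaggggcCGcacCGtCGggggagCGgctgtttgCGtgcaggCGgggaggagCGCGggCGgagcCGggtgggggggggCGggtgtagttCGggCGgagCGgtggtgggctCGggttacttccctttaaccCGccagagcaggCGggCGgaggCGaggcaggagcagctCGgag

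The Mme window shown is the second of 3 for that gene; the others hold 4 and 29 CpG. The median of all 32851 RefSeq windows was 7 CpG. At least 32 CpG occurred in 9.52% of all windows and at least 28 in 14.2%, whereas at least 4 occurred in 68.6%. The other windows of genes called higher held 2 to 10 CpG, on both sides of that median: 9 for Dpep1, 4 for Dpp4, 5 for Vil1, and 2, 10, 7 and 8 for the 4 starts of Ggt1. Windows with 28 or more CpG, a cutoff taken from the Anpep window itself, belonged to Anpep and Mme alone among the 8 matched genes. These were the 2 not called higher, but 1 start of Mme held 4 CpG, as did that of Folh1. Any relation of CpG to the calls was not tested.

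Short motifs were searched on both strands, by their letters alone; none is contained in another. GTTAAT occurred in 1 of the 13 windows, that of Folh1, and in 7.10% of all windows. CAAAGTCCA, an element bound by HNF4 factors, occurred in none of the 13 and in 0.475% of all windows. TATAAA, the box bound by the TBP subunit of TFIID, occurred in 2 of the 13, of Dpp4 and Ggt1, and in 13.6% of all windows. These matches describe the letters in the windows and say nothing of binding.

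Within an age, the genes did not all vary together. Day 0 library 6 was the highest of its age for 5 of the 9 genes and day 0 library 2 the lowest for 5, and day 8 library 1 was the lowest of its age for 5. Day 8 library 2 lay above its age mean for 8 of the 9. Correlated over the 11 libraries with the mean deviation of the other 8 genes, Anpep (Pearson r = 0.858), Ggt1 (0.849) and Vil1 (0.801) followed them closely. Dpp4 (0.0161), Mep1b (0.0627) and Folh1 (-0.349) did not, and Folh1 had only 11 to 39 counts in each day 0 library. These correlations share libraries and are a description. Summed CPM of 8 markers of the first proximal segments was 5872 in day 0 library 6 and 4452 in day 0 library 2, the highest and lowest of that age, and 10378 in day 8 library 1 within a day 8 range of 10310.1 to 11272. For 7 markers of the last proximal segment the order was different: the sum was 732 in day 0 library 6, the lowest of its age, and 844 in day 0 library 2, within a day 0 range of 732 to 973, and 1797 in day 8 library 1, the lowest of its age. Each sum weighs its most abundant markers most, so a library may stand out in it through few genes. The part of either set of markers in these deviations was not tested.

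**Figure D4:**
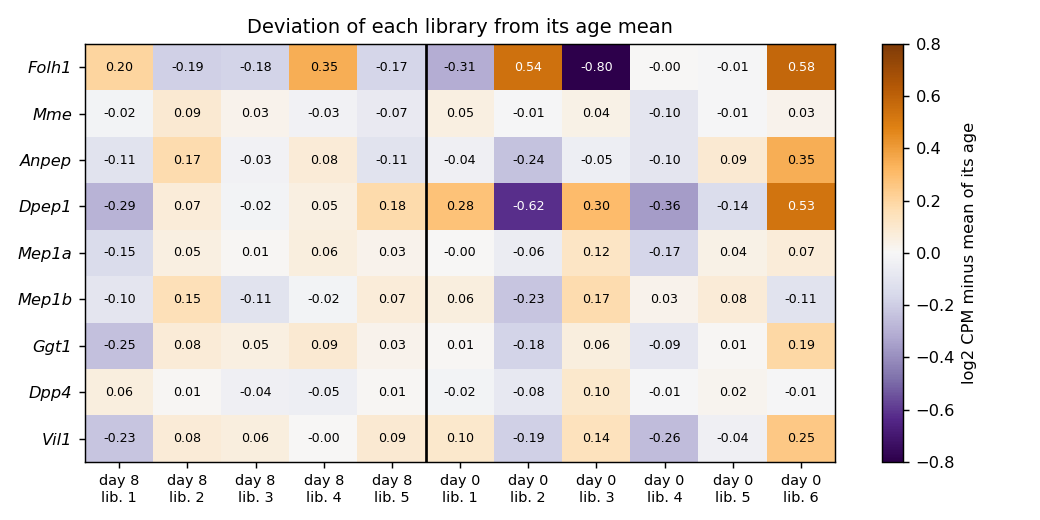
Deviation of log2 CPM from the mean of the same age for each gene (rows) and library (columns, day 8 left of day 0), printed in each cell and coloured from purple (below the mean) to orange (above it). Day 0 library 2 lay at -0.62 for Dpep1 and day 0 library 6 at 0.53, while deviations of Mme did not exceed 0.10 in size.

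The genes whose deviations within ages were most like the mean of the 9, among 11050 other genes with a mean of at least 10 CPM, were Idh1 (Pearson r = 0.956), the cytosolic isocitrate dehydrogenase, Dolk (0.955), dolichol kinase, Slc3a1 (0.950), the heavy subunit of the cystine transporter, and Tmem106a (0.948). All 4 were called higher at day 8, with log2 fold changes of 0.27 for Idh1, 0.29 for Dolk, 0.96 for Slc3a1 and 0.88 for Tmem106a (edgeR, adjusted p = 0.0327 for Idh1). The call of Idh1 was lost on leaving out day 0 library 2, 3, 4 or 5 or day 8 library 2 or 4. Over all 11 libraries, with the difference of ages kept in, other genes were most like the mean log2 CPM of the 9. They were Slc25a15 (0.998), the mitochondrial ornithine carrier, Chdh (0.998), choline dehydrogenase, and Lamp1 (0.998), a lysosomal membrane protein. Next came Gas6 (0.997), a ligand of the TAM receptors, and Enpp6 (0.997), a choline phosphodiesterase. Folh1, with a log2 fold change of 4.71, changed most in that mean. Over the same libraries Anpep (-0.477) and Mme (0.218) did not follow the mean of the other 8. The remaining members had r of 0.784 to 0.991. These values include the difference of the ages and do not show likeness to each member.

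Other peptidases of the brush border were mostly higher at day 8. Among all tested genes, 27.5% were called higher and 30.1% lower, the shares against which this list and those below are to be read. Of 6 tested, 4 were called higher and 2 not called, with a median log2 fold change of 0.80 against -0.01 for all tested genes. Ace, angiotensin-converting enzyme, averaged 531 ± 70.7 CPM at day 8 and 229 ± 23.0 CPM at day 0 (log2 fold change 1.22, edgeR adjusted p = 9.11e-08). Cpm, carboxypeptidase M, averaged 134 ± 9.52 CPM at day 8 and 52.5 ± 3.35 CPM at day 0 (log2 fold change 1.35, edgeR adjusted p = 1.55e-11). Xpnpep2 (chosen after its values were seen), an aminopeptidase that cuts before proline, was also called, at 0.92. Enpep, aminopeptidase A, an aminopeptidase like Anpep, averaged 324 ± 10.6 CPM at day 8 and 349 ± 23.4 CPM at day 0 and was not called (log2 fold change -0.11, edgeR adjusted p = 0.0652).

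Hydrolases of the tubule surface that are not peptidases gave 4 of 6 higher and 2 not called, with a median log2 fold change of 1.44. Mgam, maltase-glucoamylase, averaged 96.5 ± 6.25 CPM at day 8 and 23.1 ± 4.05 CPM at day 0 (log2 fold change 2.06). Nt5e, the ecto-nucleotidase CD73, averaged 42.3 ± 4.02 CPM at day 8 and 12.3 ± 1.25 CPM at day 0 (1.78), and Alpl, tissue-nonspecific alkaline phosphatase, averaged 168 ± 15.5 CPM at day 8 and 54.4 ± 11.3 CPM at day 0 (1.62). Car4, a membrane carbonic anhydrase, was not called (log2 fold change -0.14, edgeR adjusted p = 0.444).

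Genes that take up or process what the peptidases release gave 16 of 19 higher and 3 not called, with a median log2 fold change of 0.74. Slc6a19, the main carrier of neutral amino acids in the proximal tubule, ranged over 77.6 to 86.3 CPM at day 8 and 13.1 to 18.5 CPM at day 0 (log2 fold change 2.37). Slc6a20b, a carrier of the same family, averaged 215 ± 22.1 CPM at day 8 and 54.1 ± 4.60 CPM at day 0 (1.99). Cltrn, collectrin, which brings such carriers to the membrane, averaged 297 ± 19.4 CPM at day 8 and 114 ± 14.2 CPM at day 0 (1.37). Gclm, the modifier subunit of the enzyme that starts glutathione synthesis, was called at 0.73, whereas its catalytic partner Gclc, chosen after its values were seen, was not (-0.07, edgeR adjusted p = 0.305).

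Among 23 genes of microvillus structure, 22 were tested: 17 were higher at day 8, 2 lower and 3 not called, with a median log2 fold change of 0.48. Cdhr5, a protocadherin that links the tips of neighbouring microvilli, averaged 131 ± 13.3 CPM at day 8 and 45.1 ± 3.65 CPM at day 0 (log2 fold change 1.54). Myo7b, the myosin of that tip complex, was called at 1.03, Pdzk1, a scaffold of apical transporters, at 0.77, and Ezr, the ezrin that ties actin to the membrane, at 0.24 (edgeR, adjusted p = 0.0112). The 2 lower genes, named after their values were seen, were the actin bundlers Fscn1 (-0.90) and Pls3 (-0.24).

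The family of villin gave 4 of 5 tested genes higher and 1 lower, with a median log2 fold change of 0.31. Scin, an actin-severing protein also called adseverin, was at 0.72, Gsn, gelsolin, at 0.31 and Svil, supervillin, at 0.25. Capg, a capping protein, was at -0.48 with an adjusted p of 0.046 by edgeR, and lost the call on leaving out each day 0 library in turn or day 8 library 1, 3 or 5; without day 8 library 5 it was -0.34.

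Relatives of the 8 peptidases in their own families, most of them not known as brush border enzymes, showed no common direction. Of 30 listed, 22 were tested: 10 were higher, 6 lower and 6 not called, with a median log2 fold change of 0.06. Among all tested genes 27.5% were called higher and 30.1% lower, and the counts of this list were not tested against those shares. Phex, an endopeptidase of the neprilysin family that is mutated in X-linked hypophosphataemia, averaged 0.458 ± 0.103 CPM at day 8 and 3.91 ± 0.848 CPM at day 0 (log2 fold change -3.07, edgeR adjusted p = 6.21e-09). Dpp10, a catalytically inactive relative of Dpp4, averaged 0.230 ± 0.0914 CPM at day 8 and 1.75 ± 0.360 CPM at day 0 (-2.89). Tfrc, the transferrin receptor and a relative of Folh1, was called higher at 0.63, and Ece1, endothelin-converting enzyme 1, was not called (0.05, edgeR adjusted p = 0.301).

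**Figure D5:**
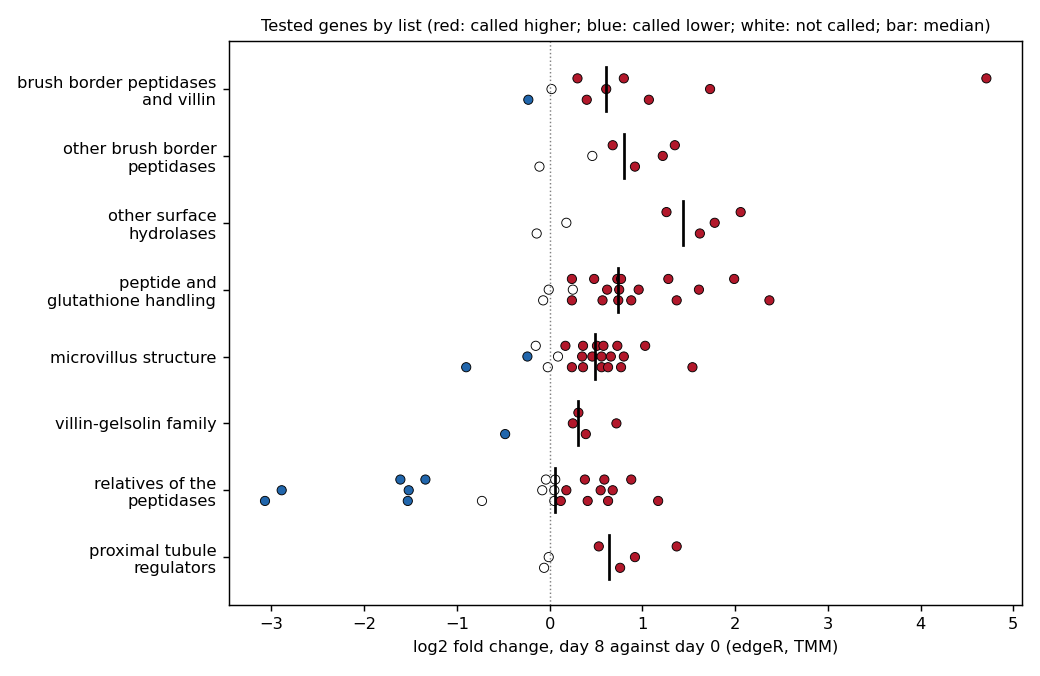
Log2 fold change at day 8 against day 0 (edgeR, TMM) of every tested gene in 8 lists, with called-higher genes in red, called-lower genes in blue, genes not called in white and a bar at each median. Medians of the lists of surface hydrolases, peptide handling and microvillus genes lie between 0.48 and 1.44, and that of the relatives of the peptidases at 0.06.

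Of 6 tested transcription factors known to act in the proximal tubule, 4 were higher and 2 not called, with a median log2 fold change of 0.64. Ppara, a receptor that drives fatty acid oxidation, was at 1.37, Nr1h4, the bile acid receptor FXR, at 0.92, and Hnf4a, a regulator of tubule maturation, at 0.76.

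Markers of the proximal tubule were higher at day 8 as well. Of 8 markers of its first segments 7 were called higher, and their summed CPM was 10310.1 to 11272 at day 8 and 4452 to 5872 at day 0. Of 7 markers of the last segment 4 were higher and 1 lower, and the sums were 1797 to 2243 CPM at day 8 and 732 to 973 CPM at day 0. Nephron progenitor markers gave 7 of 8 lower, with 19.7 to 32.6 CPM at day 8 and 167 to 193 CPM at day 0. In whole kidney, more cells of a type and more RNA per cell cannot be told apart, and the part of these markers in the changes of the peptidases was not tested.

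Markers of other cell types were counted in the same way. Of all tested genes, 27.5% were called higher at day 8 and 30.1% lower. Endothelial markers gave 8 of 8 higher, stromal markers 7 of 8 higher and 1 lower, podocyte markers 3 higher and 3 lower of 8, and macrophage markers 3 higher of 8. The podocyte sums overlapped, at 1437 to 1596 CPM at day 8 and 1461 to 1601 CPM at day 0. Endothelial, stromal and macrophage sums did not overlap. Neutrophil markers gave 5 of 5 tested lower, muscle markers 2 of 3 lower, adrenal markers 2 of 2 not called and intestinal markers 1 of 1 lower. Fat markers gave 5 of 6 higher, with sums of 183 to 337 CPM at day 8 and 122 to 141 CPM at day 0, and liver markers 1 of 8 lower, with 14.5 to 119 CPM at day 8 and 22.5 to 360.3 CPM at day 0. Some fat markers were scarce at day 0 and changed by more than the fat sum, which weighs abundant markers most. Liver markers were highest in day 0 libraries 1 to 3 and fat markers in day 8 libraries 3 to 5; without either set of libraries 7 of the 9 genes were still called higher. No marker in these lists was at 0 in every library.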

How the data were processed

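Kidney RNA was measured by RNA-seq in 12 labelled samples, 6 at each age; 11 were matched to columns by their titles, and 1 day 8 sample was not analysed here. Libraries were stranded and depleted of ribosomal RNA, per the labels' protocols, from RNA purified on NucleoSpin columns. The deposited tables hold estimated counts, of which 12.1% to 13.1% per library were not whole and were rounded before testing, and TPM values that the authors scaled for length and library total. Per the submitters' processing notes, FastQC, fastp, DRAGEN, Picard and build mm10 were used; the sources used here do not give which made the counts, or whether strand was used. All 25 pairs of libraries of one age differed by more than sampling noise (chi-square per degree of freedom of at least 4.95).

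The test across genes was that of edgeR 4.0.16 under R 4.3.3 (TMM, filterByExpr, robust quasi-likelihood fit, rounded counts, Benjamini-Hochberg over 18763 genes, threshold 0.05). On simulated data with 50 genes changed at each size, it recovered 74% at 1.5-fold, 86% at 2-fold and 94% at 4-fold and 8-fold. There 182 of 18531 genes were called, 8 of them falsely. In the real data 57.6% of genes were called, so the simulation does not check the test under such broad change. Smaller changes, such as those of Dpp4, Mep1b and Anpep, were not simulated. The log2 CPM used for deviations has a prior count of 2. Within-library TPM ratios (pseudocount 0.1 TPM) were compared by exact permutation over libraries, adjusted over 10 ratios. Alternatives were DESeq2 1.42.0, limma-voom, RLE factors, library size only, no filter, limma 3.58.1 on log2 TPM (pseudocounts of 1 and 0.1, filtered at a mean of 1 TPM; with the pseudocount of 1 also unfiltered), a threshold of 0.01, Xist as a further term, and each library left out. Fits without day 0 libraries 1 to 3, and without day 8 libraries 3 to 5, were chosen after seeing the data. The genes, 20 lists and tests were chosen with earlier results of these data known. From each list the text names the 2 largest changes and the 2 highest levels, and the 5 genes most like the set by each of 2 measures; for marker lists it gives counts and sums only, and some genes named by this rule are not reported here. Gene positions come from GENCODE vM21. Figures used Python 3.11.15 with matplotlib 3.10.9.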

Additional observations from a re-analysis of the deposited data

Results flagged for a closer look

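In groups of 4 to 10 libraries, a single library was set against the others by the gap to its nearest neighbour over the range of the group. Of 112 groups of levels and ratios examined, 5 held a library past the critical value of Dixon's test, about as many as chance gives at 1 in 20. Of these, 4 were day 8 library 1. Mep1a was at 693 CPM there, against 774 to 804 CPM in the other 4 day 8 libraries, and Ggt1 at 270.1 CPM, against 327 to 342 CPM. Car4 was at 29.9 CPM, against 46.0 to 51.1 CPM. The Dpp4 to Vil1 ratio was 3.79 in the same library, against 2.96 to 3.01 in the others. The remaining one was Slc3a1 in day 0 library 6, at 215 CPM against 118 to 153 CPM in the other 5 day 0 libraries.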

How the results depend on the processing

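Over 23 alternatives, 7 of the 9 genes kept their direction and their side of the threshold in each. The count called higher was 7, or 8 with limma on TPM filtered at a mean of 1 (Mme 0.19). The count called lower was 0 in place of 1 with limma-voom, RLE factors, no filter, the 3 TPM settings, Xist as a further term, a threshold of 0.01, and without day 8 libraries 3 to 5 together, and ranged from 0 to 1 on leaving out 1 library. Anpep ranged from -0.33 to -0.09 (adjusted p up to 0.652). Mme turned to -0.05 with library size only and -0.0047 without day 8 library 2 (0.04 at most over single libraries). All 10 ratios kept their direction and call over the 13 alternatives run for them. Those left out each library, used 1 TPM as the pseudocount or took CPM in place of TPM. Of all genes, 2477, 2474 and 2830 were called lower with the TPM settings (log2(TPM + 1), log2(TPM + 0.1), no filter), against 5646; higher genes were 68.7%, 68.5% and 66.7% of calls there, 39.5% with library size only and 47.8% with TMM.

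In the lists, the count called lower changed most: 1 in place of 0 other brush border peptidases with library size only (Enpep, -0.17) and without day 0 library 4 or day 8 library 2, so 0 to 1 over single libraries; 1 in place of 0 for peptide handling with library size only; 2 in place of 6 relatives with both filtered TPM settings; 0 in place of 1 of the villin family in 17 alternatives, 0 to 1 over single libraries; and 1 in place of 2 microvillus genes with the TPM settings and without day 8 libraries 3 to 5, 2 to 3 over single libraries. Signs turned for Enpep (0.04 with TPM) and Ece1 (-0.01 with library size only). Ezr lost its call with library size only (adjusted p = 0.0659) and without day 0 libraries 1 to 3 (0.104). The cause of these changes was not tested. No paired analysis was possible because the labels give no number, litter or batch shared between the ages. Depth limits Folh1 at day 0, with 11 to 39 counts a library.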
